A study of Mus musculus with 42 samples.

Results

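Skeletal muscle of mice given the huoxue part of the SHENQI compound (E) was compared with skeletal muscle of untreated mice of the same disease model (C), 3 arrays against 3, over all genes. Of the 42 single-colour Agilent arrays of the series these are the 6 labelled huoxue or macroangiopathy and muscle, and 13408 of the 21186 genes on the arrays were tested, those for which the scanner software marked a probe as well above background on every array of either group. Both groups were male KK/Ay mice, a strain that becomes obese and diabetic, fed a high-fat diet with the nitric oxide synthase inhibitor L-NAME at 0.2 mg/ml in the drinking water for 8 weeks, which is the model of diabetic macroangiopathy. The model group received saline by gavage and the huoxue group salvia miltiorrhiza and rhubarb at 2.7 g/kg per day for 8 weeks. All mice were described as 18 to 20 weeks old, without saying at which point of the study. Of the other 15 skeletal muscle arrays, some came from healthy C57BL/6 mice (G) and from KK/Ay mice with spontaneous diabetes (A), both on saline. Group G differs from the model in strain, diet and L-NAME. Group A was not among the mice given the high-fat diet and L-NAME. The rest came from model mice given SHENQI compound (B), its yangyinyiqi part (D) or rosiglitazone (F). Each array held RNA of 1 mouse, 3 mice were taken per group, and which muscle was sampled is not given in the sources used here.

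Skeletal muscle takes up most of the glucose that insulin clears from blood, and burns it with fatty acids in mitochondria. Muscle fibres hold a circadian clock in which Arntl and Clock switch on Per, Cry and Nr1d genes and output factors such as Dbp, so that the level of these genes depends on the hour of sampling. Smad7 is an inhibitor of the TGF-beta pathway, which limits muscle growth and drives fibrosis, and it is switched on by that pathway as a feedback.

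A slide of this design holds 4 arrays, and 11 slides were used for the series. The 3 huoxue muscle arrays shared slide 1 with rosiglitazone replicate 1. Macroangiopathy replicates 1 and 2 were on slide 5 and replicate 3 on slide 6, so slide and treatment cannot be told apart in this comparison from these 6 arrays. On the huoxue arrays 53.8% to 57.3% of the probes that name a gene were well above background, against 60.9% to 66.1% on the macroangiopathy arrays. The median raw intensity was 65 to 75 against 87 to 111.5, and the median local background 29 to 31 against 45 to 52. Of the genes tested, 528 were well above background on none of the huoxue arrays and 4 on none of the macroangiopathy arrays. Across all genes, replicates correlated with r from 0.991 to 0.993 within the huoxue group and from 0.983 to 0.993 within the macroangiopathy group, and arrays of different groups with r from 0.964 to 0.978. All 12 skeletal muscle fibre markers were well above background in both groups, with summed intensities of 1126500 to 1206700 on the huoxue arrays and 1283300 to 1330600 on the macroangiopathy arrays. Summed markers were also lower on every huoxue array for satellite cells (4815.5 to 5032.8 against 6503.1 to 7670.6), macrophages (3737.3 to 4169.4 against 4469.9 to 5204.3) and endothelial cells (3984.3 to 4241 against 4546.3 to 4619.7). The median log2 difference over the tested markers was 0.19 for satellite cells, 0.058 for macrophages and -0.012 for endothelial cells, so the sum and the median had opposite signs for satellite cells and macrophages. Of 5 satellite cell markers tested 2 were called lower and 0 higher in limma (40%). Of 8 macrophage markers 2 were lower and 1 higher (37.5%), and of 8 endothelial markers 2 were lower (25%). Among all genes tested 32.2% were called. Summed heart muscle markers (6833.2 to 11093 against 5216.4 to 6476.7) and smooth muscle markers (26523 to 27761 against 24535 to 26288) were higher on every huoxue array, with medians of -0.024 and 0.062. The sums of the other marker lists overlapped between the groups, with 21653 to 33499 against 21862 to 44662 for adipocytes and 6852.8 to 9259.5 against 7838.1 to 8757.3 for fibroblasts, and epidermis and hair markers reached 54980 on a macroangiopathy array. The part of these other cells in the results below was not tested. In bulk tissue, fewer cells of a type and less RNA per cell cannot be told apart.

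Compared with macroangiopathy, 4311 of 13408 genes (32.2%) differed at a Benjamini-Hochberg adjusted p below 0.05 in limma, 2320 higher in the huoxue group (17.3%) and 1991 lower (14.8%). Values are log2 intensities, and every difference below is the huoxue mean minus the macroangiopathy mean on that scale unless another is named. Most changes were small: the median size among the called genes was 0.44, and 62.9% of them were below 0.5. Of the 351 called genes that changed by more than 1, only 17 were higher and 334 were lower, and the range ran from -4.48 to 2.35. The 6 arrays did not overlap between the groups for 6738 genes (50.3%), among them 4299 of the called ones. Without macroangiopathy 1 the number called was 2604 and without huoxue 2 it was 2829. With each array scaled to its own median in place of quantile normalization, 0 genes passed in limma and 36 passed at an unadjusted p below 0.05, and the median difference over all genes moved from 0.06 to 0.21.

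The arrays of other groups were used to see how far these differences followed the slides. For each of the 4311 called genes, the position of another muscle array was taken on a line where 0 is the macroangiopathy mean and 1 the huoxue mean. The rosiglitazone array of slide 1 had a median position of 0.75, and 73.6% of the called genes were closer to huoxue than to macroangiopathy there. The rosiglitazone arrays 2 and 3, which were on slide 2, had positions of 0.63 and 0.65. Healthy replicates 1 and 2, also on slide 2, lay at 0.50 and 0.54, and healthy replicate 3, on slide 7, at -0.12. Untreated healthy muscle was therefore about midway between the groups on 1 slide and beside the macroangiopathy arrays on another. The healthy arrays of those slides also differed in markers of other cells, given below. The 9 diabetic, SHENQI and yangyinyiqi arrays, on slides 4, 5 and 6, had positions between -0.05 and 0.12.

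**Figure D1:**
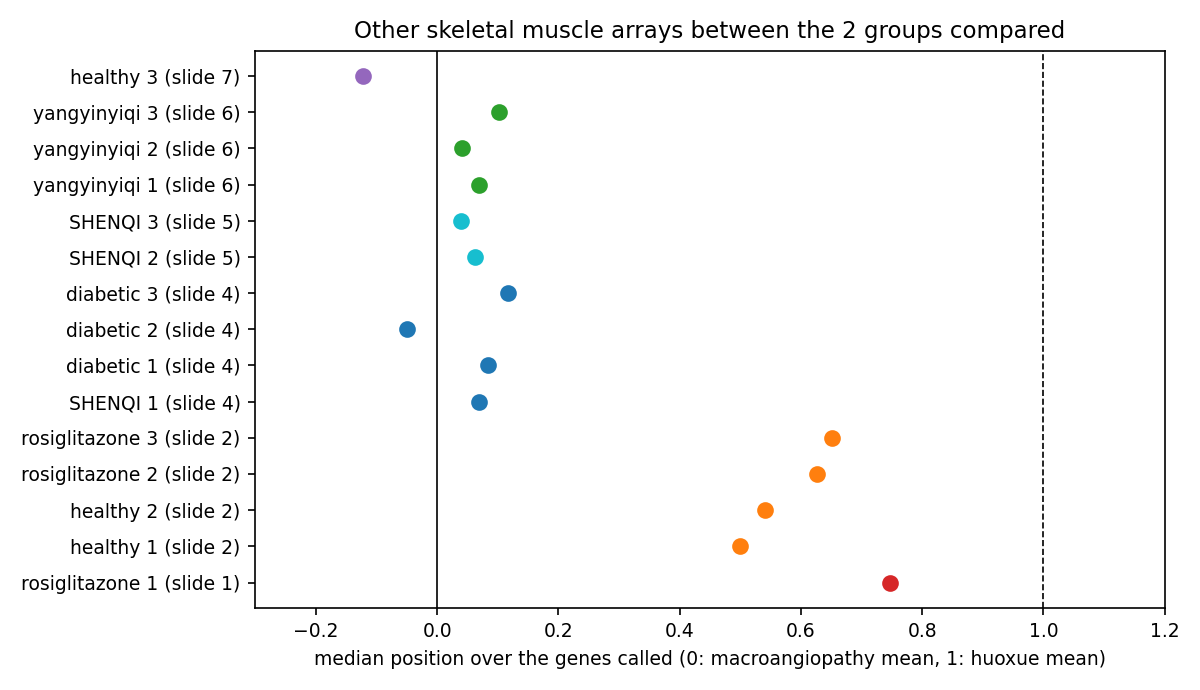
Median position of each of the 15 other skeletal muscle arrays over the 4311 called genes, where 0 is the macroangiopathy mean and 1 the huoxue mean, coloured by slide. The arrays of slides 1 and 2, from rosiglitazone and healthy muscle, lie from 0.50 to 0.75, and all others at 0.12 or below. No rosiglitazone muscle array was on another slide.

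Slide differences whose means hold no huoxue array were measured in 2 places. The fit for healthy muscle took its variance from all 21 muscle arrays, the huoxue arrays included. In healthy muscle, replicates 1 and 2 (slide 2) differed from replicate 3 (slide 7) at 4560 of 15549 genes (29.3%) in limma, or 40.3% without adjustment, with 1 array on a side that is assumed to vary like the other groups. The median of replicates 1 and 2 minus replicate 3 was -6.22 for neutrophil (2 tested), -4.47 for epidermis and hair and -1.18 for macrophage markers. It was 0.87 for endothelial, 0.89 for fibroblast and 0.93 for smooth muscle markers. Slide and the cells in the sample thus cannot be told apart in this healthy difference, called a slide difference below. Within the healthy, diabetic and SHENQI groups of aorta, the arrays of slide 3 differed from those of other slides at 220 of 14236 genes (1.55%). That count ranged from 4 (without SHENQI aorta 1) to 288 when an array was left out. Of the 4162 called genes measured in both, 3784 (90.9%) had the same sign in the huoxue comparison as in the aorta slide difference, and across these genes the correlation was 0.86. In the healthy muscle slide difference 3249 of 4274 (76.0%) had the same sign, with a correlation of 0.56. Over all genes tested the shares were 74.2% and 64.7%. The called genes were chosen by the huoxue comparison alone, genes are not independent replicates, and these figures describe the overlap without a test. With slides 1, 2 and 3 as a batch term over all 42 arrays, 19 of 13357 genes (0.142%) passed for huoxue against macroangiopathy, and 763 passed without adjustment. This term pools the 3 slides and has a single value for both tissues. All huoxue and rosiglitazone muscle arrays carry it, so it rests on the aorta arrays of slide 3 and on healthy muscle. Slide 1 does not inform the term, and a gene that passed was not corrected for slide 1 itself. With slide as a random block over the 21 muscle arrays 700 genes passed.

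**Figure D2:**
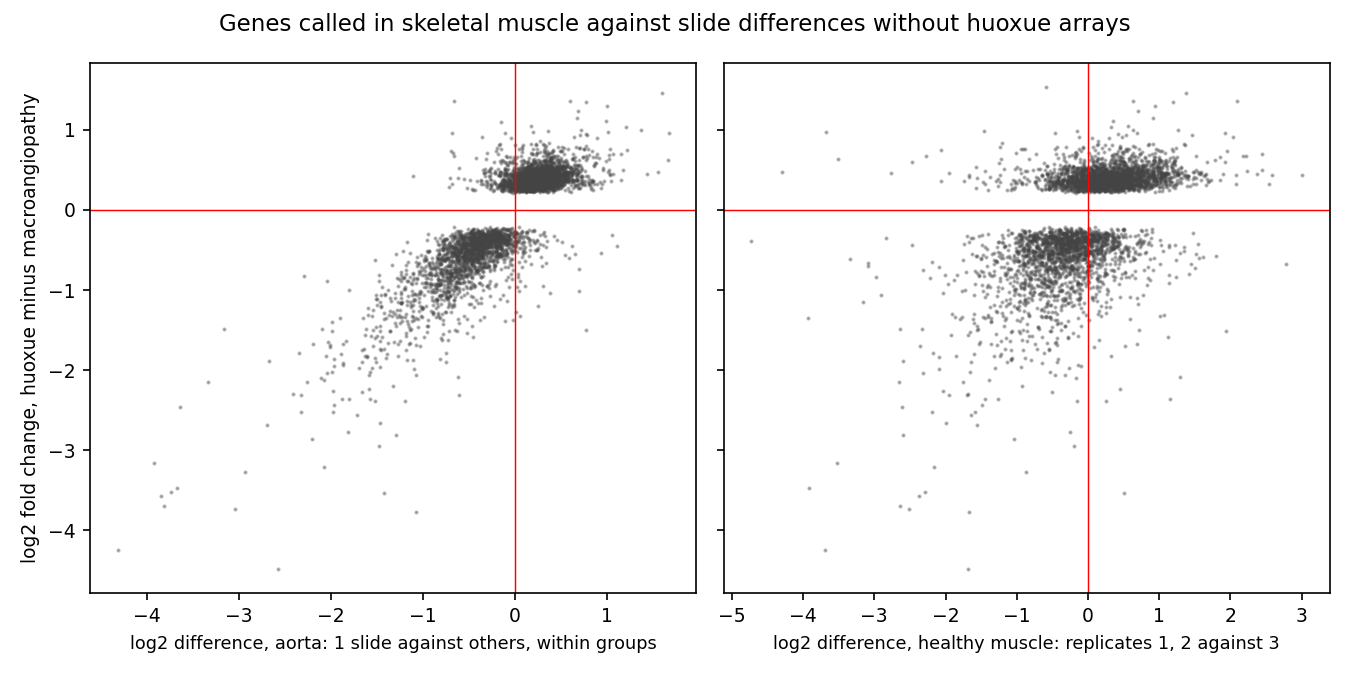
Difference between huoxue and macroangiopathy muscle (vertical, log2) against the slide difference within aorta groups and within healthy muscle (horizontal, log2), each point a called gene, with lines at 0. The points lie along a rising band, with r of 0.86 for aorta and 0.56 for healthy muscle.

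The largest increases among genes well above background on all 6 arrays were small beside the largest decreases. Mepe, a phosphoglycoprotein of bone matrix, was at 7.76, 7.68 and 7.71 on huoxue arrays 1, 2 and 3 and at 6.15, 6.45 and 6.46 on macroangiopathy arrays 1, 2 and 3, a rise of 1.36 (SE 0.10, adjusted p = 2.48e-04). Cldn14, a claudin of tight junctions, rose by 1.35 (SE 0.13), and Scrt2, a zinc finger repressor of the nervous system, by 1.29 (SE 0.081). Adcyap1r1, the receptor of the neuropeptide PACAP, rose by 1.23 (SE 0.075) as the mean of probes at 0.30 and 2.17. Bloc1s3, a subunit of a complex that sorts cargo to lysosome-related organelles, rose by 1.15 (SE 0.079). Carm1, an arginine methyltransferase that acts as a transcriptional coactivator, rose by 1.11 (SE 0.10) from probes at 0.32 and 1.90, and Sult1e1, which sulfates and so inactivates oestrogens, by 1.10 (SE 0.15). With Dbp these are 8 of the 10 largest increases, the other 2 being a clone or predicted gene. The aorta slide difference of Mepe was 0.60, of Cldn14 0.77 and of Carm1 0.99, each in the direction of its change in muscle, while that of Sult1e1 was -0.15.

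The largest decreases among genes well above background on all 6 arrays were deeper. Rpl10a, a protein of the large ribosomal subunit, was at 7.81, 6.77 and 7.28 on the huoxue arrays and at 11.83, 12.21 and 11.25 on the macroangiopathy arrays, a fall with a log2 difference of -4.48 (SE 0.30, adjusted p = 1.86e-04). All 3 huoxue values lay below those of every other muscle array, rosiglitazone replicate 1 being next at 7.94. Psme3, an activator of the proteasome in the nucleus, was at 10.29, 10.24 and 10.26 against 14.18, 13.92 and 13.99, a difference of -3.77 (SE 0.088, adjusted p = 2.60e-06) with the smallest adjusted p of the comparison. In healthy muscle Psme3 was at 9.74, 10.63 and 11.85 in replicates 1, 2 and 3. The pair on slide 2 was thus lower than the array on slide 7, and all 3 lay below the macroangiopathy arrays. The rosiglitazone mean of Psme3 was 10.54. Uqcrb, a subunit of respiratory complex III, differed by -3.57 (SE 0.23) and by -3.85 in the aorta slide difference. Cox7c, a subunit of cytochrome c oxidase, differed by -3.27 (SE 0.25) and by -2.94 there. Both subunits thus moved on the aorta slide, which held no huoxue and no macroangiopathy array, about as far as in the huoxue comparison. The Ran-related Rasl2-9-ps (-3.16), the nonclassical histocompatibility gene H2-T23 (-2.86), the Hmgb1-related sequence Hmgb1-rs17 (-2.80) and the ribosomal protein gene Rpl30 (-2.56) also fell. Several of these have near-identical copies in the genome, whose transcripts could share a probe, and the other 2 of the 10 largest decreases under this limit, which leaves out Smad7, were clone or predicted genes.

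**Figure D3:**
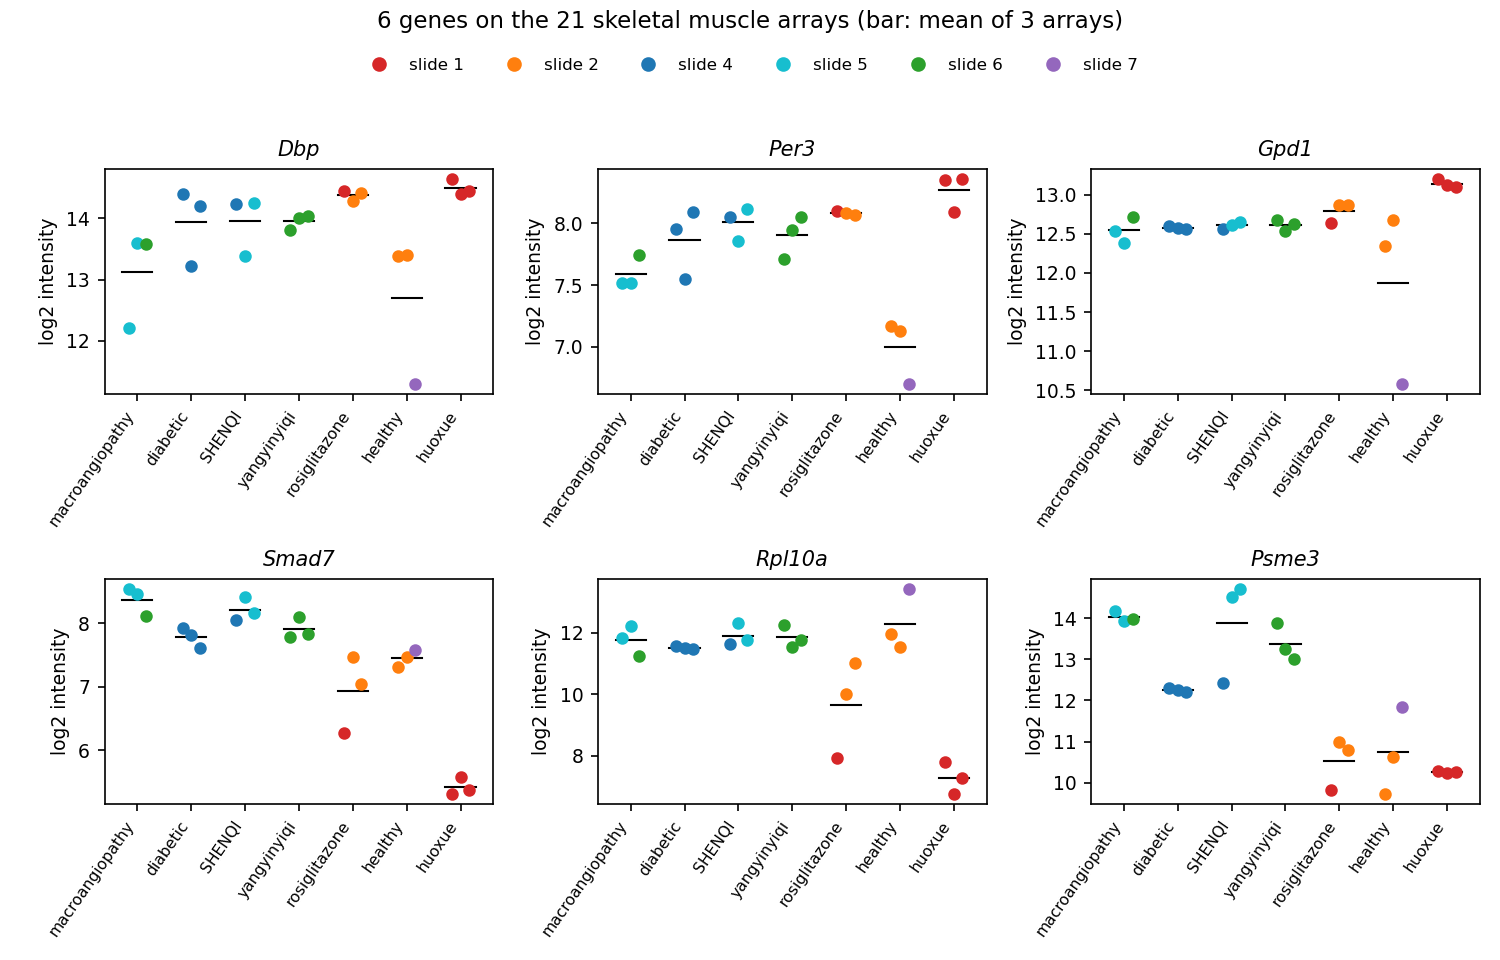
Log2 intensity of Dbp, Per3, Gpd1, Smad7, Rpl10a and Psme3 on the 21 skeletal muscle arrays by group, each point an array coloured by its slide and each bar a group mean. The huoxue arrays lie outside all others for Gpd1, Smad7 and Rpl10a, whereas for Psme3 and Dbp arrays of slide 1 or 2 from other groups lie within or beside their range.

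A stricter description asked where the huoxue arrays stood outside all 18 other muscle arrays, the rosiglitazone array of the same slide included. This held for 836 of the called genes (6.24% of those tested), 456 above all others (3.4%) and 380 below (2.83%). Whether called or not, 942 genes (7.03%) had all 3 huoxue arrays outside, 537 above (4.01%) and 405 below (3.02%), against 9.34% for the healthy group, the only other strain, and 0.104% to 0.351% for the remaining 5 groups. The diabetic and yangyinyiqi groups also had all 3 arrays on a single slide, and their shares were 0.351% and 0.157%. Those slides were not the slide of the huoxue arrays, and by the positions given above their arrays lay close to the macroangiopathy mean. These shares thus do not show how far the huoxue slide sets its arrays apart, which was not tested. Of the 812 such called genes measured in aorta, 759 (93.5%) had the sign of the aorta slide difference.

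Among the called genes above all other muscle arrays and well above background on all 6 arrays, Serpinb6b, an intracellular serine protease inhibitor, had the widest gap, 0.32 between the lowest huoxue array and the next array. It was at 9.05, 8.76 and 8.80 in the huoxue group and 8.30, 8.17 and 7.91 in the macroangiopathy group (difference 0.74 (SE 0.13, adjusted p = 0.00545)). Gpd1, the cytosolic glycerol-3-phosphate dehydrogenase that links glycolysis to triglyceride synthesis, was at 13.20, 13.12 and 13.10 against 12.54, 12.38 and 12.72, a rise of 0.59 (SE 0.099, adjusted p = 0.00529). Healthy muscle had 12.35, 12.67 and 10.59 of Gpd1 in replicates 1, 2 and 3, so its replicate on slide 7 was the lowest of the 3. The gap was 0.31 for the homeobox gene Rhox4e (rise of 0.51), 0.26 for the FoxO transcription factor Foxo4 (0.55), 0.25 for Rsad1 (0.62), 0.25 for Mepe and 0.25 for Bcas3 (0.57). These rises were under 0.8 except that of Mepe, small beside the decreases of the genes below all others.

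Among the called genes below all other muscle arrays and well above background on all 6 arrays, a limit that leaves out Smad7, Arhgap25, an inhibitor of Rac in leukocytes, had the widest gap other than a predicted gene, 0.60, at 6.89, 7.03 and 6.998 against 8.04, 8.16 and 8.001 (difference -1.09 (SE 0.081, adjusted p = 2.48e-04)). Its aorta slide difference was -0.37. Lyz1, a lysozyme of myeloid and epithelial cells, was at 9.44, 9.65 and 9.30 against 11.21, 11.55 and 11.12 (difference -1.83 (SE 0.14, adjusted p = 2.48e-04)), beside the macrophage markers given above, whose sum was lower and whose median difference was 0.058. Nars, which charges the tRNA for asparagine, differed by -1.75, Tmsb10, an actin-binding thymosin, by -1.64, and Atp6ap2, the prorenin receptor and an accessory subunit of the proton pump, by -1.60. The protease Rce1 and the Golgi calcium-binding protein Sdf4 also met the rule, but their probes disagreed. A probe of Rce1 differed by -2.09, with no huoxue array well above background, and the other by 0.62. The 3 probes of Sdf4 differed by -2.58, -1.48 and 0.22.

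Disagreement between probes was common. Of the 1918 called genes with several probes, 1347 (70.2%) had all probes on one side of 0 and 571 (29.8%) had probes on both. The heat shock cognate Hspa8, the chaperone of clathrin uncoating and protein folding, showed -2.96 on a probe and 0.21 on the other, and tropomyosin Tpm3 of slow fibres -2.54 and 0.41. The RNA-binding protein Hnrnpa2b1 showed -2.69 and 0.091. The called change of these genes, which averages the probes, rested on 1 of their 2 probes. Other genes named below also had unequal probes: Gsr at -1.23, -0.47 and 0.32, Tsc22d3 at -1.29, -0.49 and 0.43, and Csnk1a1 from -1.15 to 0.36 on 6 probes. In Gtpbp4 (-1.01), Hspb11 (0.29) and Utp20 (0.31) the probe well above background on all 6 arrays differed less than the mean of the gene.

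Dbp, a transcription factor whose level follows the clock, rose in the huoxue group. It was at 14.64, 14.39 and 14.44 on huoxue arrays 1, 2 and 3 and at 12.22, 13.59 and 13.59 on macroangiopathy arrays 1, 2 and 3, a rise of 1.36 (SE 0.34, adjusted p = 0.0205), or 2.57-fold. The groups did not overlap, and macroangiopathy replicate 1 was the lowest of the 6 arrays. The call was lost without huoxue 1, 2 or 3 (adjusted p up to 0.0571). The 3 rosiglitazone arrays were at 14.44, 14.27 and 14.41, the healthy arrays at 13.38, 13.40 and 11.30 and the 9 diabetic, SHENQI and yangyinyiqi arrays from 13.23 to 14.39. The huoxue and rosiglitazone arrays overlapped, with a difference of 0.12 (adjusted p = 0.658), and healthy replicate 3 was the lowest array of all. Within healthy muscle the slide difference of Dbp was 2.09, larger than the huoxue change, and in aorta it was -0.67, the opposite sign. With slides 1, 2 and 3 as a batch term the difference was 1.34 (SE 0.75, adjusted p = 0.971), with slide as a random block its adjusted p was 0.279, and with a term for slides 1 and 2 in the 21 muscle arrays, which rests on healthy replicate 3 alone, it was -0.73.

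Of the 18 clock genes tested, 5 were higher and 1 was lower, 33.3% against 32.2% of all genes, with a median difference of 0.16 against 0.06. With each array scaled to its own median, the list median was 0.31 and none passed. Among repressors, Per3 rose by 0.68 (SE 0.11, adjusted p = 0.00434), from 7.51, 7.52 and 7.74 to 8.35, 8.09 and 8.36, and stayed called without any single array. Cry2 rose by 0.41 (SE 0.094), a call that was lost without macroangiopathy 1 (adjusted p = 0.0552). Nr1d2, which represses Arntl, was the member that fell, with a difference of -0.44 (SE 0.11), lost without huoxue 2 or 3 or macroangiopathy 2 or 3 (adjusted p up to 0.0664) and turned to 0.054 by scaling to the median. Arntl differed by -0.36 (adjusted p = 0.231) and Clock by -0.14 (0.185), neither past the threshold. The differences of Per1 (0.68, adjusted p = 0.0608), Per2 (0.17, 0.283) and Cry1 (0.21, 0.0835) did not pass either. Among the outputs Hlf, a relative of Dbp in the PAR bZIP family, rose by 0.59 (SE 0.11, adjusted p = 0.00728). The hour of sampling of each mouse is not given in the sources used here, and none of the 18 genes stood outside all other muscle arrays.

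**Figure D4:**
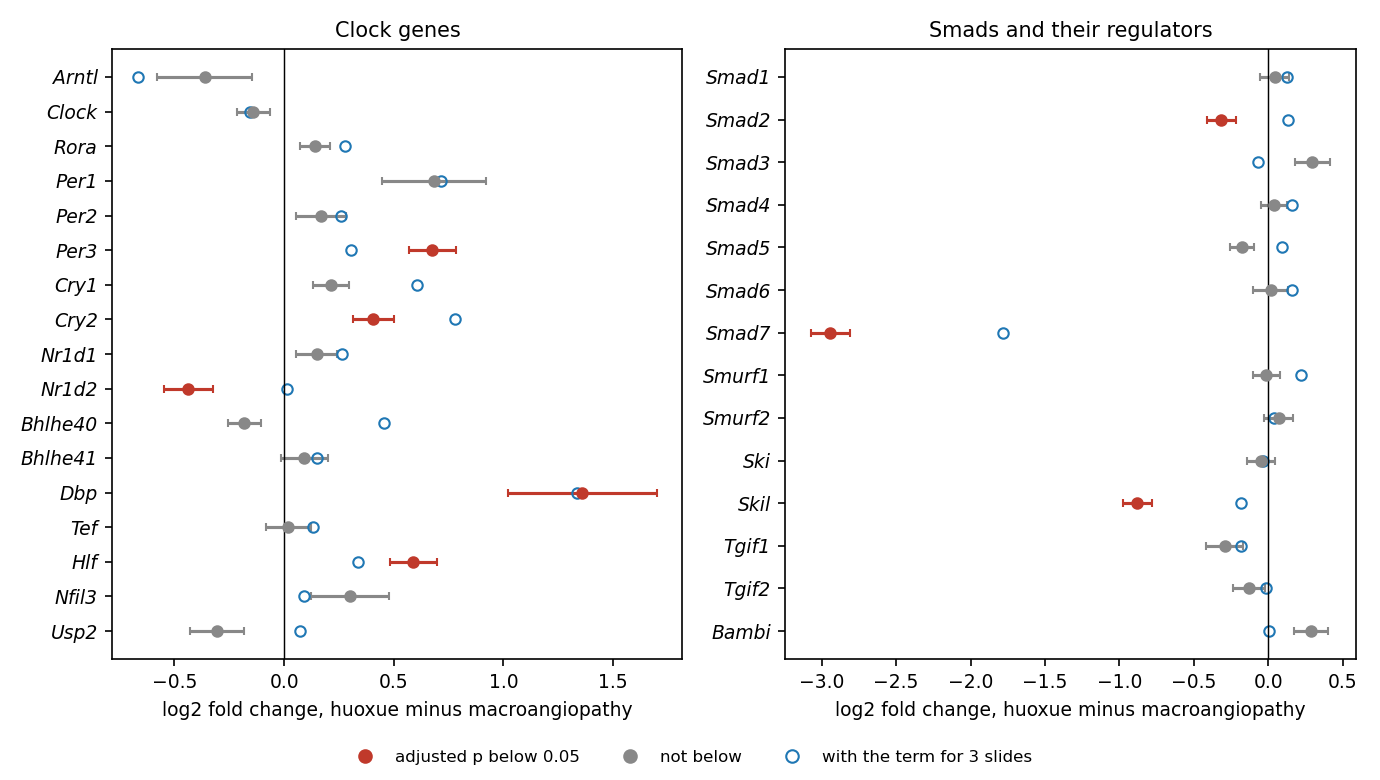
Difference between huoxue and macroangiopathy muscle (log2, with SE) for clock genes and for the Smads and their regulators of the TGF-beta list, in red where the adjusted p was below 0.05 and grey otherwise, with open circles for the fit with the batch term for the 3 slides. Dbp stands at 1.36 with the widest error of the called clock genes, and Smad7 at -2.94 is the lowest of the genes drawn.

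The 250 bases before the start of Dbp and of Cry2 are shown, since Dbp is the clock gene that moved most and Cry2 the called clock gene whose window held a match. They are RefSeq sequence of GRCm38.p6, 5′ to 3′ on the strand of the gene, chr7:45704997-45705246 on the plus strand and chr2:92434070-92434319 on the minus strand, and capitals mark a match.
Dbp: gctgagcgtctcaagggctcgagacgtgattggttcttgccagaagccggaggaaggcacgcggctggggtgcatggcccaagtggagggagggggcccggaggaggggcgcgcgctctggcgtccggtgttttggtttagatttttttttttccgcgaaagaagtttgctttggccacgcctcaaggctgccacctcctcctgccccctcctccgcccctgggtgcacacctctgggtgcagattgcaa
Cry2: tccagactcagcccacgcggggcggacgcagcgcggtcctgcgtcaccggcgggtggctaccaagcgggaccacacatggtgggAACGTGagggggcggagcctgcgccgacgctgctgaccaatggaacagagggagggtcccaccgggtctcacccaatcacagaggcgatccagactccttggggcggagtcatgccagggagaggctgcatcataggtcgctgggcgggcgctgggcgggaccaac
The E-box CACGTG and its variant CACGTT, to which Arntl and Clock bind, were searched on both strands, and no site can match both. In these windows CACGTG was found in 6.86% of 27025 genes and CACGTT in 4.5%. Of the 17 clock genes with a window, 5 held CACGTG and 3 CACGTT. Among the 5 called ones with a window, 0 held CACGTG and 1, Cry2, held CACGTT on the opposite strand, so that it reads AACGTG above. The Dbp window held neither, which says only that these letters are not in this stretch.

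Smad7 was the gene of the TGF-beta list that moved most. It was at 5.32, 5.59 and 5.37 on the huoxue arrays and 8.53, 8.46 and 8.11 on the macroangiopathy arrays, a difference of -2.94 (SE 0.13, adjusted p = 4.16e-05), and it kept its call without any single array. It was well above background on none of the huoxue arrays, and the fold was estimated at 5.21-fold lower. For this each huoxue array entered at the higher of its Smad7 signal and a floor. The floor was the lowest signal among the probes well above background on that array. It ran from 1.35 to 6.29 between the huoxue arrays, so the fold is no strict bound. The rosiglitazone array of slide 1 was next lowest at 6.28, and the other rosiglitazone arrays were at 7.46 and 7.05. The healthy arrays were at 7.31, 7.47 and 7.58 and the 9 diabetic, SHENQI and yangyinyiqi arrays from 7.61 to 8.41. All 3 huoxue arrays thus lay below every other muscle array, by 0.70 at the nearest. Smad7 also differed in the aorta slide difference (-1.48) and less in the healthy one (-0.20). With the batch term for 3 slides it differed by -1.78 (SE 0.37, adjusted p = 0.0324), 1 of the 19 genes that passed.

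Of the 49 genes of the TGF-beta list, Smad7 included, 5 were higher and 4 lower, 18.4% beside 32.2% of all genes, with a median of 0.02 (0.20 with scaling to the median). Among ligands and their binding proteins, Tgfb2 rose by 0.48 (SE 0.10), Tgfb3 by 0.42 (SE 0.10), Inhbb, a chain of activin B, by 0.36 (SE 0.11), and Ltbp3, which holds latent TGF-beta in the matrix, by 0.42 (SE 0.084). Fst, which binds and blocks activin and myostatin, fell, with a difference of -0.91 (SE 0.12), with the huoxue arrays below all others. None of the 12 receptors was called by limma. Among Smads and regulators, Skil, a repressor of Smad signalling that the pathway induces, differed by -0.88 (SE 0.096) and Smad2, a receptor-activated Smad, by -0.32 (SE 0.096). Of 8 targets only Id3, an inhibitor of helix-loop-helix factors, was called, with a rise of 0.63 (SE 0.13). The call of Inhbb was lost without huoxue 1, 2 or 3 or macroangiopathy 1 or 3 (adjusted p up to 0.135), that of Tgfb3 without huoxue 2 or macroangiopathy 1 (adjusted p up to 0.0632) and that of Smad2 without huoxue 1 or 2 or macroangiopathy 1, 2 or 3 (adjusted p up to 0.0994). Skil and Fst had aorta slide differences of -0.73 and -0.80.

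Lists of energy metabolism had called members in both directions. Of 81 oxidative phosphorylation genes 12 were higher and 31 lower (53.1%), with a median of -0.095 that turned to 0.33 with each array scaled to its median. The lower members spread over the chain: 14 of 37 in complex I, 2 of 4 in complex II, 3 of 10 in complex III, 5 of 14 in complex IV and 7 of 16 in ATP synthase. In complex IV itself Cox8a rose by 0.53 (SE 0.085) and Cox5b by 0.52 (SE 0.09), while Cox7c fell. With slide as a random block 1 was higher and 16 lower, and with the batch term for 3 slides 0 of the list passed in limma. Across all 29 lists, 16 medians were above 0 with quantile normalization and 29 with scaling to the median. The count was 20 with the authors' table and 24 with the processed signal. The median over all genes also moved, from 0.06 with quantile normalization to 0.21 with scaling to the median. List directions below thus hold for quantile normalization alone where a second value is not given.

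Of 20 genes of the citrate cycle and its entry, 6 were higher and 4 lower. Pdp1, the phosphatase that switches pyruvate dehydrogenase on, rose by 0.64 (SE 0.13), and Idh3b, a subunit of mitochondrial isocitrate dehydrogenase, by 0.42 (SE 0.094). Pdhb, the beta subunit of pyruvate dehydrogenase, fell, with a difference of -1.29 (SE 0.19). Dld, the lipoamide dehydrogenase of the same complex, differed by -0.64 as the mean of 3 probes at -2.16, 0.095 and 0.16. Of 36 genes of fatty acid oxidation, 5 were higher and 7 lower (33.3%). Lpl, which frees fatty acids from lipoproteins, rose by 0.57 (SE 0.11) and the receptor Ppara by 0.49 (SE 0.11). Angptl4, an inhibitor of Lpl, fell, with a difference of -1.32 (SE 0.33), and so did the mitochondrial uncoupling protein Ucp3, with -1.18 (SE 0.28), both of them targets of PPAR receptors. The call of Ppara was lost without huoxue 2 or macroangiopathy 1 (adjusted p up to 0.0567), that of Angptl4 without huoxue 1 or 3 or macroangiopathy 1 or 3 (adjusted p up to 0.0646) and that of Ucp3 without huoxue 1 (adjusted p = 0.0508). Ucp3 was at 6.97, 7.54 and 7.22 on the huoxue arrays and 9.04, 7.88 and 8.35 on the macroangiopathy arrays, and all 3 huoxue values lay below every other muscle array.

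Of 29 glycolysis and glycogen genes 6 rose and 6 fell. Ldhb, the lactate dehydrogenase chain of oxidative muscle, rose by 0.53 (SE 0.11) and Pgm2, a phosphoglucomutase, by 0.49 (SE 0.084). Phkg1, the catalytic subunit of the kinase that activates glycogen phosphorylase in muscle, was at 8.70, 7.97 and 8.18 against 10.89, 10.65 and 10.47, a difference of -2.38 (SE 0.19, adjusted p = 3.27e-04), with an aorta slide difference of -1.20. Hk2, the insulin-responsive hexokinase of muscle, differed by -0.79 (SE 0.071). Of 38 genes of insulin signalling and glucose transport, 3 were higher and 5 lower (21.1% beside 32.2% of all genes). The glucose transporter Slc2a12 rose by 0.46 (SE 0.086). Prkab2, the AMP kinase subunit of muscle, fell, with a difference of -0.75 (SE 0.089). Eif4ebp1, a brake on translation downstream of insulin, was called lower (-0.55) from probes at -1.36 and 0.26, the first with no huoxue array above background.

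The contractile apparatus was called at 20 of 49 genes (40.8% beside 32.2% of all genes), 8 higher and 12 lower. Of the 14 genes of fast fibres 1 was higher and 7 lower (57.1%). Of the 11 of slow fibres 2 were higher and 2 lower (36.4%), and of the 24 shared ones 5 and 3 (33.3%). The median difference was -0.29 for fast, 0.14 for slow and 0.023 for shared genes. The medians of the aorta slide difference were -0.56, 0.066 and -0.0066 in the same order. Tnni1, the slow troponin I, rose by 0.83 (SE 0.18), at 13.62, 14.22 and 14.15 against 12.95, 13.16 and 13.40. Pvalb, the calcium buffer of fast fibres, fell, with a difference of -1.51 (SE 0.27), at 13.42, 14.35 and 14.51 against 15.47, 15.84 and 15.50. The aorta slide difference of Pvalb was -1.47, similar in size, and that of Tnni1 0.22. Ldb3, a scaffold of the Z-disc, rose by 0.61 (SE 0.11). Of 28 atrophy and myogenic genes 4 were higher and 4 lower. Chrna1, the alpha subunit of the acetylcholine receptor, rose by 0.78 (SE 0.11) and Myog, the differentiation factor myogenin, by 0.64 (SE 0.12). Fbxo32, the atrophy ubiquitin ligase atrogin-1, fell, with a difference of -0.74 (SE 0.15), and Nfe2l1, a regulator of proteasome genes, differed by -0.49 (SE 0.12), a call lost without huoxue 1 or 3 or macroangiopathy 1 or 3 (adjusted p up to 0.0708). The satellite cell markers, whose sum was lower on every huoxue array and whose median difference was 0.19, stand beside these values, and their part in them was not tested.

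Among genes of protein synthesis and turnover, more were called lower than higher in each list with quantile normalization. Of all genes 17.3% were higher and 14.8% lower. With the processed signal the order turned for the proteasome (8 higher, 6 lower) and mitochondrial ribosomal proteins (15 higher, 13 lower). It held for the other lists of this paragraph. Cytosolic ribosomal proteins had 16 of 93 higher and 29 lower (48.4%), with a median of -0.12 that turned to 0.28 with scaling to the median. Rps14 rose by 0.60 (SE 0.10) while Rpl10a and Rpl30 fell. Of 76 mitochondrial ribosomal proteins 9 were higher, among them Mrps22 (0.54) and Mrpl10 (0.54), and 17 lower, among them Mrpl21 (-1.57) and Mrpl16 (-1.21). Of 78 ribosome biogenesis genes 11 were higher and 25 lower. The nucleolar GTPases Gnl2 and Gtpbp4 differed by -1.54 (SE 0.13) and -1.53 (SE 0.1) and lay below all other muscle arrays, while the helicase Ddx18 rose by 0.60 (SE 0.083) and the small-subunit processome factor Utp20 by 0.57 (SE 0.15). The call of Utp20 was lost without macroangiopathy 1, 2 or 3 (adjusted p up to 0.0642). Of 38 proteasome genes 5 were higher and 11 lower, with a median of -0.18 (0.34 with scaling to the median). The core subunit Psma2 rose by 0.90 (SE 0.15, adjusted p = 0.00529), above all other muscle arrays, and passed with the batch term for 3 slides. This averages a bright probe at 0.45, well above background on all 6 arrays, and a probe at 1.35 that was well above background on none. Psmd8 of the regulatory cap rose by 0.51 (SE 0.078), and Psmd10 and Psmd3 differed by -1.01 (SE 0.073) and -0.87 (SE 0.088). Of 105 splicing genes 13 were higher, led by Lsm3 (0.59) and Sf3b2 (0.54), and 23 lower, led by Rbm42 (-1.35) and Hnrnpa2b1 (-1.30).

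**Figure D5:**
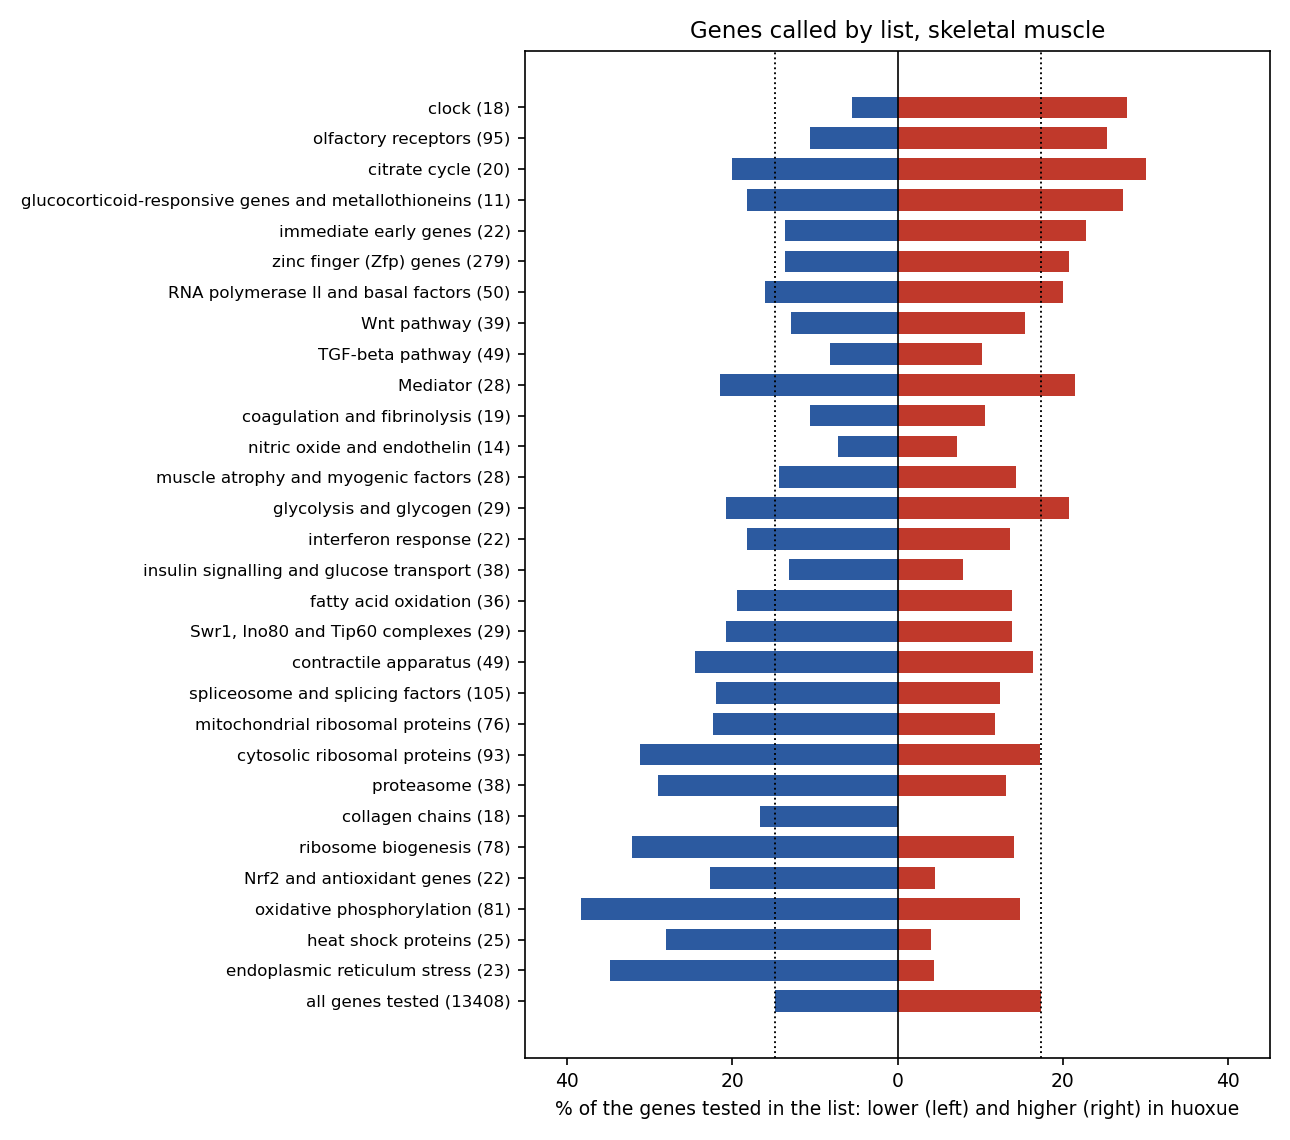
Genes called higher (right) and lower (left) in huoxue muscle for each gene list, as a percentage of the members tested, beside all 13408 genes tested (dotted lines). The shares called run from 14.3% for nitric oxide and endothelin genes to 53.1% for oxidative phosphorylation, against 32.2% of all genes.

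Of the stress lists, endoplasmic reticulum stress had 1 of 23 genes higher and 8 lower. Its median, -0.23, was the lowest of the 29 lists (0.15 with scaling to the median, beside 0.21 over all genes). Herpud1, a part of the machinery that removes misfolded proteins, was at 11.07, 11.16 and 11.32 against 12.37, 12.28 and 12.38, a difference of -1.16 (SE 0.089, adjusted p = 2.72e-04), below all other muscle arrays. Atf4, the transcription factor of the integrated stress response, differed by -0.76 (SE 0.15). Ddit3, the factor CHOP, was the member that rose, by 0.36 (SE 0.08), a call lost without macroangiopathy 1 (adjusted p = 0.0508). Of 25 heat shock proteins 1 was higher, Hspb11 by 0.45 (SE 0.091), and 7 were lower, with Bag3, which serves chaperone-assisted autophagy in muscle, at -1.37 (SE 0.098) and Hspa8 at -1.37 on average over its discordant probes. Of 22 antioxidant genes the mitochondrial peroxiredoxin Prdx3 was called higher (0.27 (SE 0.08), lost without huoxue 1 or 2 or macroangiopathy 1, 2 or 3 (adjusted p up to 0.106)) and 5 were lower, among them thioredoxin Txn1 (-0.84) and glutathione reductase Gsr (-0.46). Herpud1, Bag3 and Txn1 had aorta slide differences of -0.40, -1.09 and -0.72.

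Vascular and matrix lists bear on the model. Nitric oxide and endothelin genes had 1 of 14 higher and 1 lower, 14.3% beside 32.2% of all genes: endothelial nitric oxide synthase Nos3 rose by 0.36 (SE 0.11), lost without huoxue 2 or 3 or macroangiopathy 1 or 3 (adjusted p up to 0.124), and Ddah2, which degrades an inhibitor of that enzyme, fell, with a difference of -1.21 (SE 0.08, adjusted p = 1.76e-04). Ddah2 was at 9.46, 9.39 and 9.40 against 10.54, 10.61 and 10.73, and its aorta slide difference was -1.45. Of 19 coagulation and fibrinolysis genes, thrombomodulin Thbd (0.36) and the ecto-nucleotidase Nt5e (0.31) were called higher and 2 lower, one of them Anxa2, a receptor for plasminogen activation (-1.07). Thbd was lost without huoxue 2 or 3 or macroangiopathy 1 or 3 (adjusted p up to 0.139), and Nt5e without huoxue 1, 2 or 3 or macroangiopathy 1 or 3 (adjusted p up to 0.0997). Of 18 collagen chains 0 were higher and 3 lower in limma, among them Col5a3 (-0.81) and Col8a1 (-0.57). The list median was -0.12, and 0.16 with scaling to the median, beside 0.06 and 0.21 over all genes. Col8a1, from probes at -1.36 (no huoxue array well above background) and 0.22, turned to 0.09 with that scaling.

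Of 39 Wnt pathway genes 6 were higher and 5 lower. Dvl3, which relays the signal from Frizzled receptors, rose by 0.80 (SE 0.091), above all other muscle arrays, and the secreted antagonist Sfrp5 by 0.66 (SE 0.075). The ligand Wnt11 (-0.39) and the casein kinase Csnk1a1 (-0.36) were called lower, Wnt11 being lost without macroangiopathy 1 or 3 (adjusted p up to 0.0707). Of 22 immediate early genes 5 were higher, led by the nuclear receptor Nr4a1 (0.73) and Jund (0.49), and 3 lower, among them Klf2, a factor of quiescent endothelium (-0.75), and Egr1 (-0.56). The call of Egr1 was lost without huoxue 3 or macroangiopathy 3 (adjusted p up to 0.0561). Of 11 glucocorticoid-responsive genes 3 were higher, among them glutamine synthetase Glul (0.70 (SE 0.16)) and metallothionein Mt2 (0.64 (SE 0.18), lost without huoxue 1, 2 or 3 or macroangiopathy 1 or 3 (adjusted p up to 0.0937)). Of its 2 lower members Tsc22d3, the glucocorticoid-induced leucine zipper, differed by -0.45 (SE 0.095). Of 22 interferon genes 3 were higher and 4 lower, with Usp18 (0.60) and Gbp2 (0.36) up and Gbp3 (-0.62) and Stat2 (-0.43) down. Gbp2 was lost without huoxue 1 or 2 or macroangiopathy 1 or 3 (adjusted p up to 0.103) and Gbp3 without huoxue 2 or macroangiopathy 1 or 2 (adjusted p up to 0.0714).

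Among lists of nuclear genes, the Swr1, Ino80 and Tip60 chromatin complexes had 4 of 29 genes higher and 6 lower (34.5%), Mediator 6 and 6 of 28 (42.9%), and RNA polymerase II with its basal factors 10 and 8 of 50 (36%). Of 279 zinc finger genes 58 were higher and 38 lower (34.4%), and of 95 olfactory receptor genes 24 were higher and 10 lower. The olfactory receptors had a share called of 35.8%, beside 32.2% of all genes.

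The 19 genes that passed with slides 1, 2 and 3 as a batch term over all 42 arrays were looked at after their values were seen. That term was not informed by slide 1, as given above. There were 10 lower (0.0749%) and 9 higher (0.0674%), and 16 of the 19 were also called in the comparison of 6 arrays. Gata1, the erythroid transcription factor, was at 6.001, 5.89 and 5.98 against 7.46, 7.29 and 7.99, with no huoxue array well above background. Its mean was 5.85 in healthy and 5.64 in rosiglitazone muscle, beside 5.96 in huoxue. Estimated as for Smad7, it was 2.81-fold lower. With the batch term its difference was -1.71 (SE 0.24, adjusted p = 3.29e-04). Akap4, an anchor protein of sperm, was likewise dim in the huoxue group and 1.69-fold lower by that estimate. Its mean was 5.40 in healthy and 5.24 in rosiglitazone muscle, beside 5.11 in huoxue. Psme3 and Smad7 remained as well, with batch-adjusted differences of -2.54 and -1.78, as did Rc3h1, the mRNA decay factor roquin (-0.66), Tceal7 (-1.61) and the cilium gene Rsph6a (-1.19). In the comparison of 6 arrays the probes of Rc3h1 differed by -1.86 and -0.033, and those of Rsph6a by -1.89 and 0.24. Neither probe of Rsph6a was well above background on all 6 arrays. The mean of Rsph6a was 6.31 in huoxue, 6.09 in healthy and 6.13 in rosiglitazone muscle. On the higher side was Rel, a member of the NF-kB family. It was at 7.53, 6.81 and 6.81 on the huoxue arrays and 4.97, 4.55 and 4.59 on the macroangiopathy arrays, the latter not well above background. By the same estimate it was 4.18-fold higher. The floors ran from -0.74 to 5.82 on the macroangiopathy arrays, so that fold is no strict bound either. It stood above every other muscle array by 0.98 and its batch-adjusted difference was 3.03 (SE 0.51, adjusted p = 0.00639). Tmem150c was 2.18-fold higher by that estimate, as the mean of probes at 2.38 and 0.077, the latter well above background on none of the 6 arrays. Psma2 (0.92), the hepatocyte growth factor receptor Met (0.88) and the membrane tether Esyt2 (1.07) were also among the 19. The probe of Esyt2 that was well above background on all 6 arrays differed by 0.041 between huoxue and macroangiopathy, and its others by 0.68 and 1.23. In the comparison of 6 arrays alone, Met was lost without huoxue 1 or 2 or macroangiopathy 2 or 3 (adjusted p up to 0.0754) and Esyt2 without huoxue 2 or 3 or macroangiopathy 1, 2 or 3 (adjusted p up to 0.12). The other 7 were clone, predicted or olfactory receptor genes or were not called in the comparison of 6 arrays.

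The same huoxue arrays were set beside the healthy arrays, all on other slides, and the rosiglitazone arrays, 1 of them on the huoxue slide, and these comparisons share arrays, so their values are given side by side. Against healthy muscle, 867 of 13377 genes (6.48%) passed, 455 higher (3.4%) and 412 lower (3.08%), and between 92 (without huoxue 2) and 2486 (without healthy 2) when an array was left out. Against rosiglitazone, 0 of 12880 passed in limma, 1572 (12.2%) had an unadjusted p below 0.05, and 61 passed without rosiglitazone 1, the array on the huoxue slide. Rpl10a differed from healthy muscle by -5.01 (adjusted p = 0.0047) and from macroangiopathy by -4.48. Smad7 differed from healthy muscle by -2.02 (0.00136), and it was not tested against rosiglitazone, where neither group had it well above background on all 3 arrays. Cox7c differed from healthy muscle by -0.24 (0.651) and Psme3 by -0.48 (0.536), neither past the threshold, although both were among the largest decreases against macroangiopathy. Per3 was above healthy muscle by 1.27 (0.0128) and Fbxo32 below it by -1.81 (0.00466).

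Whether the change differed between skeletal muscle and aorta of the same groups was tested with an interaction term over 12 arrays. It passed at 479 of 15704 genes (3.05%), 84 with the higher difference in muscle (0.535%) and 395 with the lower (2.52%). The difference in muscle minus that in aorta was -4.84 for Rpl10a (adjusted p = 8.66e-04), -3.94 for Psme3 (1.98e-04) and -2.95 for Smad7 (0.00211), each close to the muscle difference itself. For Dbp it was 1.002 (0.422) and for Per3 0.67 (0.215), not past the threshold. The macroangiopathy aorta arrays were on slide 8 and the huoxue aorta arrays on slides 9 and 10, so slides differ between the groups in both tissues.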

How the data were processed

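RNA of 21 skeletal muscle samples, 1 array each, was analysed beside the 21 aorta arrays of the series. The deposited scanner files of the authors hold raw median intensity and local background per spot, read with Agilent Feature Extraction 10.7.3.1 (version 10.7 in the submitters' processing notes). The log2 values of the authors' deposited value table, normalized by them, served as an alternative. The alignment of probes to genes was that of the files, and 0 value columns could not be mapped to a sample.

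Intensities were corrected with normexp (offset 0) in limma 3.58.1 under R 4.3.3, quantile normalized over 42 arrays and put on the log2 scale. Control spots were left out and irregular spots set to missing. The probes of a gene were averaged, from 41174 probes, 34891 of them with a symbol, to 21186 genes. A gene was tested where every array of either group had a probe of it marked well above background. Groups, from the sample labels, were compared with lmFit and eBayes on the arrays of the groups compared, with Benjamini-Hochberg adjusted p below 0.05. Slides were numbered 1 to 11 in the order of their identifiers. In data simulated for the main comparison, 90.5% of 200 changed genes (log2 change of 1) among 13408 were recovered and 3.72% of calls were false. The real comparison differs from that setting, with 4311 genes called at a median size of 0.44. Slide and treatment also cannot be told apart in it, so 3.72% is not its rate of false calls. Replicate numbers were not taken to pair the samples. Same-numbered arrays of the groups gave correlations of -0.064, -0.067 and 0.12, and differently numbered ones from -0.23 to 0.25. These are not the correlations of intensities given above, and with 3 arrays a group they cannot exclude a pairing. Signals are precise only as far as 3 arrays a group allow. The p-values set a difference against the spread of arrays within groups. In the main comparison that difference holds slide and treatment together, and the spread of the huoxue arrays comes from a single slide.

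The comparison, gene lists and markers were chosen with earlier results of these data known. Genes were named by rule: Dbp and Smad7, the 10 largest called changes in each direction without overlap, the 8 in each direction with the widest gap to the 18 other muscle arrays, the 2 strongest called members per list and direction, all with a probe above background on all 6 arrays, and members of the clock and TGF-beta lists. Clone and predicted symbols were skipped in the text, and some genes that met the rule are not reported here. Promoter windows are RefSeq, 250 bases upstream.

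Alternatives were other background corrections and normalizations, the authors' table, other filters, the brightest probe, trend and robust eBayes, all 21 muscle arrays, slide or replicate number as a block, batch terms for slides, and each array left out. A fit of all 42 arrays with 14 means was added after the values were seen.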

Additional observations from a re-analysis of the deposited data

Results flagged for a closer look

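The change from macroangiopathy to huoxue differed between skeletal muscle and aorta, by the interaction term, at 479 genes. In muscle the huoxue arrays were all on slide 1 with no macroangiopathy array, and in aorta the huoxue arrays were on slides 9 and 10 and the macroangiopathy arrays on slide 8, so slide and treatment cannot be told apart in this difference. Among the called genes named in the report, the muscle minus aorta difference was -3.40 for Rasl2-9-ps (adjusted p = 5.02e-05), -3.40 for Cox7c (0.00639), -1.54 for Gtpbp4 (0.00105), -1.18 for Psmd10 (8.66e-04) and 1.22 for Mepe (0.00639). With each array scaled to its median, 0 genes passed in limma.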

How the results depend on the processing

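The number of genes called in huoxue against macroangiopathy stayed within 1.5 times of 4311 under 9 settings of background correction, normalization, filter, probe choice and eBayes options. With the replicate number as a block, for which no pairing of samples was seen, it was 3254. It was 0 with scaling to each array's median, 2542 in a fit of all 21 muscle arrays, 700 with slide as a random block, 2379 with a term for slides 1 and 2 in muscle, 19 with slides 1, 2 and 3 as a term over all 42 arrays, 671 with 14 means over all 42 arrays (added after the values were seen), and 2604 to 3357 with an array left out. The count without adjustment, 6100, became 36, 2712, 763 and 2637 with scaling to the median, the slide block, the term for 3 slides and the 14 means, and 5143 to 5853 with an array left out. The 836 called genes outside all other muscle arrays became 0, 272 and 250 with scaling to the median, the slide block and the 14 means, and 657 to 1033 with an array left out. Huoxue against healthy (867) became 25 with scaling to the median, 460 without a filter, 4723 with 21 arrays, 3167 with the slide block, 297 with the replicate block and 92 to 2486 with an array left out. Huoxue against rosiglitazone (0) became 16 with the authors' table, 8 with 21 arrays, 6 with the slide block and 0 to 61 with an array left out. The interaction (479) became 302 with normalization within tissue, 0 with scaling to the median and 196 to 603 with an array left out. The healthy slide difference (4560) became 699 with scaling to the median and 4418 to 4850 with an array left out. The aorta slide difference (220) became 435 with the processed signal, 0 with scaling to the median, 486 with the authors' table, 399 without a filter, 72 with a strict filter, 337 with the brightest probe and 4 to 288 with an array left out. Of the 129 genes looked at by name, 124 were called and 101 of these kept the call without any single array. The log2 difference changed sign with the term for slides 1 and 2 in muscle, which rests on healthy replicate 3, for Anxa2 0.53, Atf4 0.24, Clock 0.10, Cox5b -0.25, Cox8a -0.0041, Csnk1a1 0.015, Dbp -0.73, Ddit3 -0.11, Egr1 0.92, Eif4ebp1 1.08, Gbp3 0.12, Gpd1 -1.33, Gsr 0.72, Gtpbp4 0.12, Hlf -0.50, Hspb11 -0.097, Id3 -0.051, Idh3b -0.45, Ldb3 -0.52, Ldhb -0.65, Lsm3 -0.61, Ltbp3 -0.052, Lyz1 0.030, Mrpl10 -0.13, Mrps22 -0.22, Nr4a1 -0.31, Pdp1 -0.35, Pgm2 -1.95, Prdx3 -0.57, Psmd3 1.001, Rasl2-9-ps 0.37, Serpinb6b -0.45, Slc2a12 -1.11, Smad2 0.45, Stat2 0.43, Tgfb2 -1.06, Tgfb3 -0.98, Tpm3 0.21, Tsc22d3 0.52, Txn1 0.15 and Usp18 -0.33. It changed sign with the term for 3 slides for Anxa2 0.13, Cox5b -0.033, Ddit3 -0.044, Egr1 0.57, Eif4ebp1 0.26, Gbp2 -0.26, Gpd1 -0.092, Gsr 0.035, Jund -0.11, Klf2 0.20, Ldhb -0.16, Lyz1 0.18, Mrpl10 -0.022, Nr1d2 0.011, Pgm2 -0.15, Prdx3 -0.096, Psmd3 0.10, Rasl2-9-ps 0.67, Smad2 0.13, Tsc22d3 0.32 and Wnt11 0.032. With scaling to the median it became Col8a1 0.090, Csnk1a1 0.087, Eif4ebp1 0.089, Nfe2l1 0.047, Nr1d2 0.054, Rce1 0.029 and Tsc22d3 0.095, with the brightest probe Col8a1 0.22, Dld 0.16, Eif4ebp1 0.26, Hnrnpa2b1 0.091, Rce1 0.62, Sdf4 0.22 and Tpm3 0.41, and with the authors' table Nt5e -0.069. The cause of these differences was not tested, other than that the brightest probe leaves the other probes of the gene out. Signal over background limits the huoxue group more, since fewer of its probes were well above background, and slide as a fixed block could not be fitted for this comparison.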
